A study of Drosophila melanogaster with 3 samples.

Results

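The Rab GTPase genes were taken as the protein-coding genes whose symbol is Rab or RabX followed by a number and, in places, capital letters. The pattern found 30 of the 13968 protein-coding genes of Drosophila melanogaster on the chromosome arms. Rab9Db, Rab9Fa and Rab9Fb have other symbols and are not among the 30, and none of these 3 had an entry near its start in the pooled lists. Binding was measured by chromatin immunoprecipitation and sequencing in whole wandering larvae of the third instar, males and females pooled, from the rgr-GFP strain. This line stably carries rgr, a protein assayed as a transcription factor, with GFP at its carboxyl terminus, and the antibody was against GFP. There was 1 group with 3 biological replicates, all of this strain. Each replicate list was called with a control alignment, and no untagged or second genotype is among the samples, so no comparison between conditions could be made. Whether the tagged rgr sits at its own locus or in an added copy is not in the labels, and whole larvae do not show which tissue a summit comes from.

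Rab proteins are small GTPases that switch between a GDP-bound and a GTP-bound form. Exchange factors load them with GTP, GTPase-activating proteins of the TBC family return them to the GDP form, and the GTP form recruits effectors to a membrane. Each Rab marks particular compartments of the secretory or the endocytic route. In larvae these routes serve, among others, glue secretion by the salivary gland and uptake by the fat body.

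The values below come from an optimal list of 8551 peaks that the authors thresholded across replicates, from a pooled relaxed list of 30000 entries, and from relaxed lists of each replicate. Relaxed entries may be background. The peak signal is the authors' own value without a stated scale, so it was used to describe and rank peaks within a list, with rank 1 the strongest. No list gives read counts, so the depth is unknown, and the number of lists, 3, limits the precision. A promoter summit is the highest point of an optimal peak within 500 bp of any annotated transcript start of the gene. All coordinates are dm6.

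A promoter summit was present at 16 of the 30 Rab genes, 53.3% (exact 95% binomial interval 34.3% to 71.7%). Over all protein-coding genes the share was 29.0%. The endosomal Rab genes held 8 of the 16. Of the early and recycling endosome genes 5 of 6 had a promoter summit (Rab5, Rab11, Rab14, Rab21 and Rab35, not Rab4), and of the late endosome and lysosome genes 3 of 4 did (Rab7, Rab32 and Rab39, not Rab9). Of the endoplasmic reticulum and Golgi genes 3 of 5 had one (Rab1, Rab2 and Rab30, not Rab6 or Rab18), and of the exocytosis genes 2 of 5 (Rab8 and Rab27, not Rab3, Rab10 or Rab26). Of the other 10 genes Rab23, Rab40 and RabX1 had one. No test was run between these groups or against other genes.

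**Figure D1:**
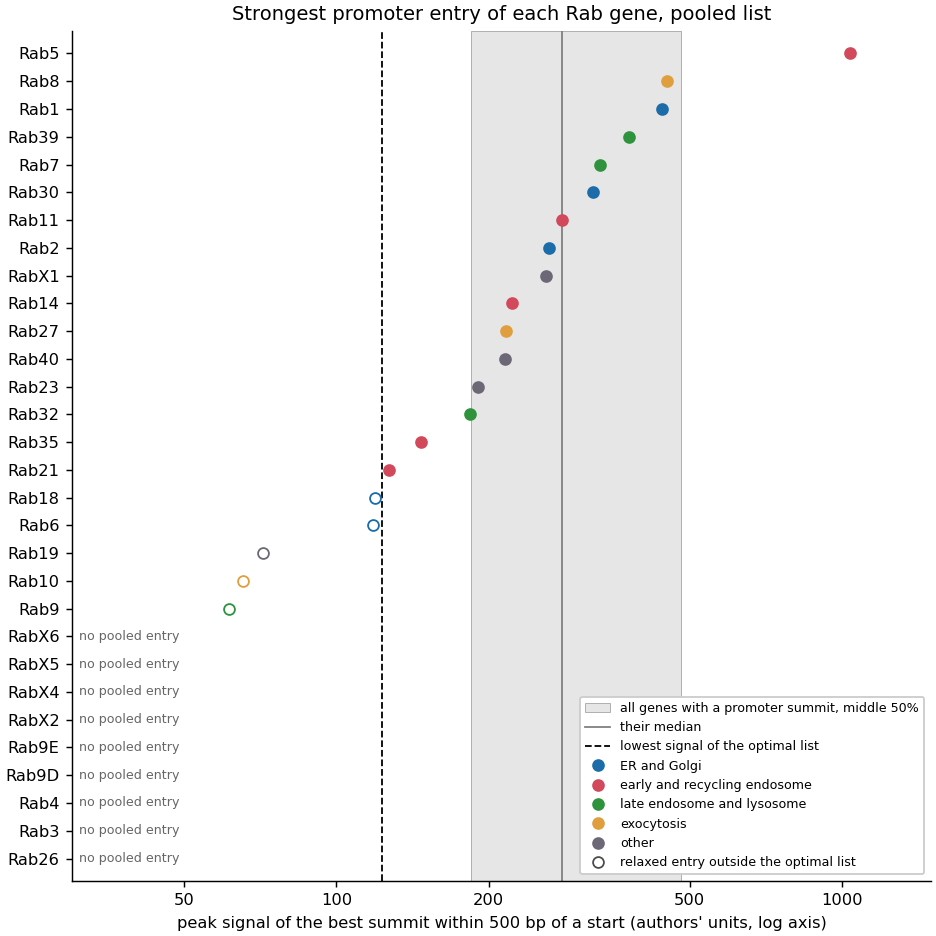
Peak signal in the authors' units (log axis) of the strongest pooled-list summit within 500 bp of a start, 1 row for each of the 30 Rab genes; filled points are in the optimal list, open points are relaxed entries, and the band and line give the middle part and the median of all genes with a promoter summit. Rab5 stands at 1037, the next gene, Rab8, at 451, and 9 genes have no pooled entry.

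The Rab summits lay near the median strength of promoter summits. Among the 16 genes the median signal of the strongest promoter summit was 262, against 279 over all 4048 genes with a promoter summit. The middle 50% of these genes ran from 185 to 480. Of the 16, 7 lay above the median of all genes and 1, Rab5, above the upper of these bounds. Of all genes with a promoter summit, 6.57% had a higher signal than Rab5. With only the stronger 4275 peaks, 9 Rab genes (30%) kept a promoter summit, against 18.2% of all genes.

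Rab5, which drives fusion of early endosomes, carried the strongest summit. The gene (FBgn0014010) lies at 2L:2359142 to 2365273 on the minus strand and has 6 annotated starts. The summit at 2L:2363750 had a signal of 1037 and fell in an intron, 246 bp upstream of the nearest start. Its ranks were 336, 288 and 289 in replicates 1, 2 and 3, so all 3 replicates placed it near the top. Another Rab5 summit, at 2L:2361799 in the 5′ UTR, had a signal of 186 and ranks of 6846, 4474 and 13599. The weakest, at 2L:2364377, also in the 5′ UTR, had a signal of 130 and ranks of 4516, 16802 and 4815. These weaker summits were uneven between replicates, unlike the first. Since all 3 lie away from the outermost start, Rab5 had no promoter summit when that start alone was used.

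Rab11, which marks recycling endosomes, had 4 optimal summits in and before the gene (FBgn0015790, 3R:21111408 to 21116146, plus strand, 1 start). The strongest was intronic, at 3R:21113204, 1796 bp from the start, with a signal of 390 and ranks of 1950, 1907 and 2176. A second intronic summit at 3R:21112649 had a signal of 216 and ranks of 3917, 5474 and 3849. Upstream of the gene, a summit 205 bp before the start at 3R:21111203 had a signal of 279 and ranks of 3394, 3484 and 3649. These summits were found at similar ranks in each replicate. The summit 5 bp before the start, at 3R:21111403, had a signal of 134. It was matched within 100 bp in replicate 1 alone, at rank 13469.

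Rab14 (FBgn0015791, 2L:14355145 to 14358764, plus strand, 3 starts), an endosomal Rab, was also stronger inside the gene than at a start. Its intronic summit at 2L:14355718, 573 bp downstream of the first start, had a signal of 549 and ranks of 942, 1428 and 1099. The promoter summit at 2L:14356966, 75 bp before an internal start, had a signal of 223 and ranks of 6165, 4022 and 4648. It also lies 88 bp from the start of a noncoding RNA gene, lncRNA:CR44851, on the other strand. The remaining endosomal members were weaker. Rab35 (X:20155766 to 20159872) had a summit 22 bp upstream of its start with a signal of 147 and ranks of 6704, 8941 and 6700. Rab21, which in mammals carries integrins, had a summit 20 bp inside its 5′ UTR with a signal of 127, just above the lowest signal of the optimal list, 123. It was at rank 9486 and 6858 in replicates 1 and 2 and had no match within 100 bp in replicate 3. Rab4, which serves rapid recycling, had no pooled entry within 500 bp and weak entries at rank 16242 in replicate 1 and 19180 in replicate 3.

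Among the late endosome and lysosome genes, Rab7, which directs fusion with lysosomes, had a summit 5 bp inside the gene (FBgn0015795, 3R:23993008 to 23995452, plus strand), in the 5′ UTR. Its signal was 333 and its ranks 2687, 2190 and 3149. Rab39 (X:7734923 to 7736756, plus strand) had a signal of 379 and ranks of 1856, 2299 and 2805, at a summit 328 bp upstream of its own start. Rab32, encoded by the eye pigment gene lightoid, had a summit 29 bp into its 5′ UTR with a signal of 184. Its ranks were 6905, 7090 and 2782, so replicate 3 placed it well above the others. Rab9, which in mammals returns cargo from late endosomes to the Golgi, had only a relaxed entry with a signal of 61.2, at rank 16247 of the pooled list.

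In the secretory route, Rab1, which acts between the endoplasmic reticulum and the Golgi, had the strongest summit of its group. It lay 37 bp upstream of the start at 3R:21269097, with a signal of 440 and ranks of 1862, 1465 and 2371. Rab30, a Golgi Rab, had a signal of 322 and ranks of 2656, 2954 and 2390. Rab2, which acts at the Golgi and in lysosome delivery, had a summit 15 bp upstream of its start with a signal of 263 and ranks of 2969, 3430 and 6499, lowest in replicate 3. Rab6, a Golgi Rab, and Rab18, found on the endoplasmic reticulum and on lipid droplets, lay just below the threshold. Their relaxed entries had signals of 118 and 119, at pooled ranks 8939 and 8809, within 100 bp of their starts.

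Of the exocytosis genes, Rab8, which guides vesicles to the plasma membrane, had a summit 1 bp from its first start (3L:19871077) with a signal of 451 and ranks of 2203, 1526 and 1084. A second summit at 3L:19869848, in an intron 290 bp before an internal start, had a signal of 185 and ranks of 5821, 5571 and 6143. Rab27, a Rab of secretory granules in mammals, had a signal of 217 and ranks of 4745, 4023 and 7797. Rab10, which in the fly ovary directs basement membrane secretion, had only a relaxed entry, with a signal of 65.3. Rab26 had no pooled entry and a promoter entry at rank 7219 in replicate 3 alone, and Rab3, the Rab of synaptic vesicles, had none in any list.

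Of the remaining genes, Rab23, which acts in planar cell polarity, had a signal of 191 and ranks of 9171, 4561 and 6209. Rab40 had a signal of 216 and ranks of 3803, 4466 and 7565. RabX1 had a promoter summit of 260 with ranks of 2643, 4624 and 3690, and a stronger intronic one of 423, 962 bp downstream of its start, with ranks of 2383, 1600 and 1683. Rab19 had a relaxed entry with a signal of 71.5. Entries were missing from every list within 500 bp of the starts of 7 genes, namely Rab3, Rab9D, Rab9E, RabX2, RabX4, RabX5 and RabX6. The share of all genes missing from every list was not counted. In the pooled relaxed list alone, 70% of the Rab genes and 45.8% of all genes had an entry. For 3 of the 7 Rab genes without entries, part of the sequence around the start occurs more than once in the genome. Of the words of 50 bases within 500 bp of the start, 58.6% occurred once in the genome for Rab9D, 45.7% for Rab9E and 79.4% for RabX2, against all of them for the other 27 Rab genes. Whether reads could be placed there was not tested.

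**Figure D2:**
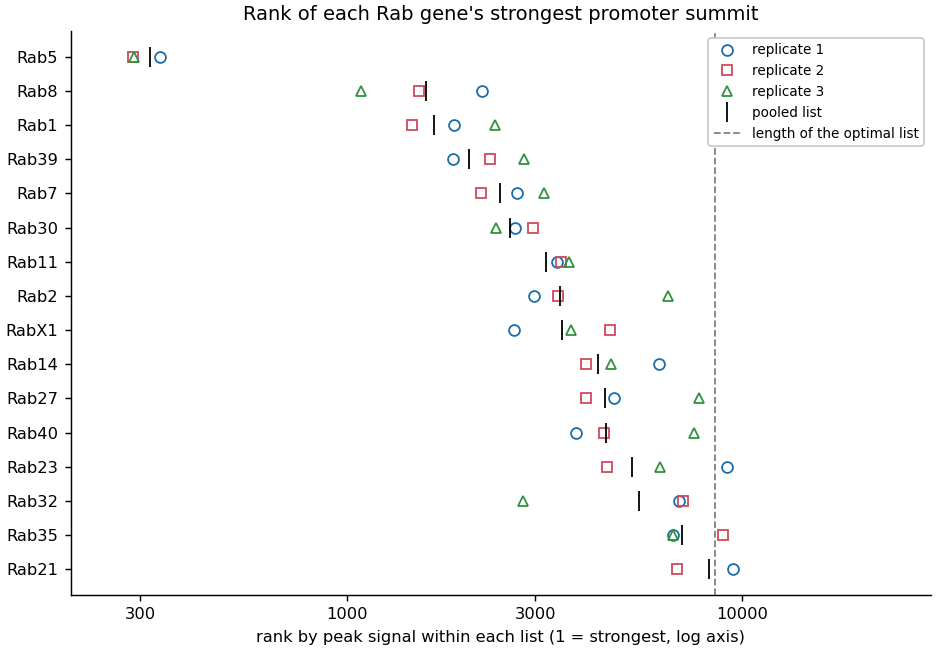
Rank by peak signal (log axis, 1 is the strongest) of the strongest promoter summit of the 16 Rab genes in the 3 replicate lists (open symbols) and the pooled list (bars); a missing symbol means no summit within 100 bp. Rab5 is at rank 288 to 336 in the replicates. Replicate 3 placed Rab32 well above the other replicates, and Rab2, Rab27 and Rab40 well below them.

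Replicates gave close counts of Rab genes. With each replicate list shortened to its top 8551 entries, 14, 16 and 17 Rab genes had a promoter summit in replicates 1, 2 and 3, a mean of 15.7 ± 1.53 genes (SD, n = 3) or 52.2% ± 5.09. Over all genes the shares were 30.9%, 29.4% and 29.5%. In all 3 top lists 13 Rab genes had a summit (43.3%), against 23.3% of all genes, and 19 did in at least 1 (63.3%), against 37.0%. Of the 20 Rab promoter summits, 14 (70%) were matched within 100 bp in the top lists of all 3 replicates, against 66.3% of the 3651 promoter summits of all protein-coding genes. The optimal list was derived from these replicates, which in part fixes such matches. In all 3 relaxed lists 18 Rab promoter summits (90%) were matched within 100 bp, against 88.4% of all promoter summits. Matching within 50 bp gave 15 and within 200 bp 20. The 18 had similar rank orders, with a Spearman rank correlation of 0.761 between replicates 1 and 2. It was 0.662 between replicates 1 and 3 and 0.604 between replicates 2 and 3. These summits share the strain and the control, and several share a gene.

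Many Rab genes share a start region with a neighbour, and a summit close to both starts cannot be given to one gene. A start of another gene on the opposite strand lay within 500 bp for 17 of the 30 Rab genes (56.7%), against 32.2% of all genes. Of these 17, 12 had a promoter summit (70.6%), against 48.5% of all genes with such a neighbour. The 12 include Rab5, whose promoter summits all lay 968 bp or more from another gene's start. They also include Rab8, whose weaker promoter summit lay 1291 bp from one. Of the 13 Rab genes without such a neighbour, 4 had a promoter summit (30.8%), namely Rab1, Rab11, Rab32 and Rab35, against 19.7% of all such genes. Genes with 1 annotated start had a promoter summit in 9 of 21 Rab genes (42.9%) and in 22.0% of all genes, and those with more starts in 7 of 9 Rab genes (77.8%) and 48.3% of all genes. Sharing a start region and having several starts thus moved with the share, and their part in the Rab count was not tested.

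For 4 of the 20 Rab promoter summits the nearest start belonged to the neighbour. The Rab27 summit (X:1477068) was 5 bp from the start of mei-38, which encodes a spindle protein, and 94 bp from that of Rab27. The Rab30 summit (2L:7032687) was 34 bp from the start of the RNA-binding protein gene Caper and 81 bp from that of Rab30. The Rab39 summit was 56 bp from the start of Pdp and 328 bp from its own. The Rab23 summit (3R:5685798) was 57 bp from the start of plx, a TBC-family gene, and 364 bp from that of Rab23. Counting each summit only for the gene with the nearest start left 12 Rab genes (40%, from 53.3%), against 22.3% of all genes (from 29.0%). Other Rab summits stood at the Rab start with a second start close by, such as Rab8 with the ubiquitin protease gene Usp32 at 62 bp, Rab2 with Mob4 at 63 bp and Rab7 with Epp at 97 bp.

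**Figure D3:**
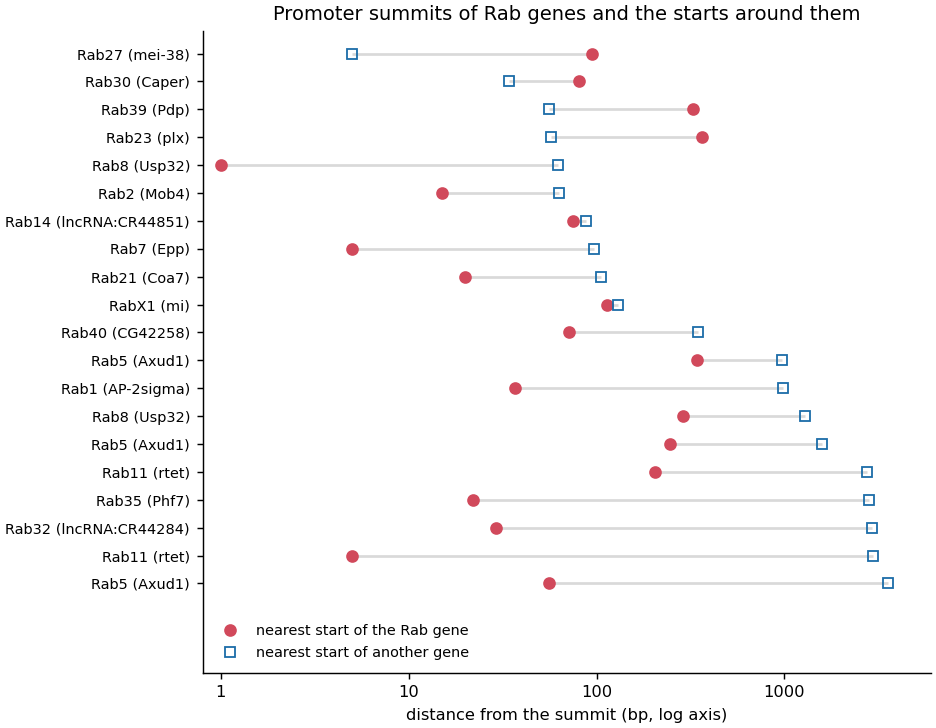
Distance in bp (log axis) from each of the 20 Rab promoter summits to the nearest start of the Rab gene (filled) and of any other gene (open, named in brackets). The top 4 rows, Rab27, Rab30, Rab39 and Rab23, have the other gene's start nearer.

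Within promoters the Rab summits lay at a median of 73.0 bp from the nearest start of the gene, against 122 bp over the 4889 pairs of a gene and a promoter summit among all protein-coding genes. Within 100 bp of the start lay 13 of the 20 Rab summits (65%), against 42.9% of all pairs. Of the 20, 14 were upstream of the nearest Rab start (70%), against 79.4% of all pairs, and 6 were downstream. These differences were not tested.

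Sequence around the summits was searched for 7 short words on both strands, within 50 bp. The word TATCGATA, the DNA replication-related element bound by DREF and by BEAF-32, was at 6 of the 20 Rab promoter summits (30%), against 4.19% of all 3651 promoter summits. The 6 were those of Rab2, Rab7, Rab27, Rab30 and Rab35 and the stronger Rab8 summit. The centre of the word was between 13 bp (Rab35) and 37 bp (Rab30) from the summit. Of these 6 summits, 5 are at genes that share their start region with a neighbour, as are 15 of all 20, and that of Rab35 is not. The sequences are shown for 5 of them because the word is what they have in common, read 5′ to 3′ on the plus strand of dm6 from the RefSeq assembly, with capitals for the words searched. In Rab7 the capitals also take in a match to CATCNCTA and an overlapping GAGAG.
Rab7, chr3R:23992963-23993063: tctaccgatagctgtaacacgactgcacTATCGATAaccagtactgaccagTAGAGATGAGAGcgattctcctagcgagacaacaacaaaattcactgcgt
Rab8, chr3L:19871027-19871127: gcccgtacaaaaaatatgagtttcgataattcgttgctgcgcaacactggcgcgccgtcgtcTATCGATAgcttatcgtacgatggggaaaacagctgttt
Rab27, chrX:1477018-1477118: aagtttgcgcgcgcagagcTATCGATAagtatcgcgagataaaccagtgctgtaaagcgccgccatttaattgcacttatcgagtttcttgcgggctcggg
Rab30, chr2L:7032637-7032737: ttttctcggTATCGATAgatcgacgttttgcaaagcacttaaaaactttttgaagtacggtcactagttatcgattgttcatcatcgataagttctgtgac
Rab35, chrX:20159844-20159944: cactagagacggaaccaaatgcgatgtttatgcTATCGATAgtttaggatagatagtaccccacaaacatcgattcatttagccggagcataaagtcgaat

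A 6-base core, ATCGAT, chosen after the sequences were seen, was within 50 bp of 9 of 20 Rab summits (45.0%), against 10.1% of all. The core is part of TATCGATA, so the 6 summits with that word are among the 9. Because it was picked from these windows, its share is no separate support. TATCGATA stood within 500 bp of the outermost start of 8 of the 16 Rab genes with a promoter summit (50%), against 19.2% of all genes with one. It also stood there in 3 of the 14 Rab genes without a promoter summit (21.4%), namely Rab6, Rab19 and RabX6, against 9.50% of all genes without one. So the word was present at Rab starts with and without a summit. Across the genome as at the Rab genes, most promoter summits had no such word within 50 bp.

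Within 50 bp the other words were sparse. CATCNCTA, a core of Ohler motif 7, was at 2 of 20 Rab summits (10%) against 3.70% of all, and TATAAA at 2 of 20 (10%) against 16.7%. GAGAG was at 1 (5.00%) against 12.2%, and TAATTA at 1 (5.00%) against 7.26%. GGTCACAC, bound by M1BP, and GTATNTTT, a core of Ohler motif 6, were at 0 of 20 Rab summits, against 3.10% and 5.53% of all. Counts this small do not separate the Rab summits from the others. The windows were 58.4% A or T at the median, against 61.4% for all promoter summits. Rab5, Rab1 and the upstream Rab11 summit are shown as well-ranked summits without TATCGATA, on the same strand, the first with TATAAA in capitals and 75.2% A or T, the others with none of the words and 44.6% and 80.2%.
Rab5, chr2L:2363700-2363800: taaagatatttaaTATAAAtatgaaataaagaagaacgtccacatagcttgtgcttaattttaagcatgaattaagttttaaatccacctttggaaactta
Rab1, chr3R:21269047-21269147: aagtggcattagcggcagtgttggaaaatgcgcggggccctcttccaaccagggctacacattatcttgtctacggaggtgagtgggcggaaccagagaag
Rab11, chr3R:21111153-21111253: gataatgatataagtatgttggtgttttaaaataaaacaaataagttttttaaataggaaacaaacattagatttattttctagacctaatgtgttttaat

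In the gene bodies, 8 of the 30 Rab genes (26.7%, exact 95% interval 12.3% to 45.9%) held an optimal summit, against 17.9% of all genes. These were Rab5, Rab7, Rab8, Rab11, Rab14, Rab21, Rab32 and RabX1. Longer genes hold summits more often. Among genes of up to 5 kb it was 6 of 25 Rab genes (24.0%), against 8.43% of all, and among those of 5 to 20 kb 2 of 5 (40%), against 39.6%. No Rab gene was longer than 20 kb. Only 3 Rab genes, Rab11, Rab14 and RabX1, had a summit in the gene over 500 bp from each of its starts (10%), against 11.2% of all genes. The other gene-body summits lay within 500 bp of a start, in introns or in the 5′ UTR.

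**Figure D4:**
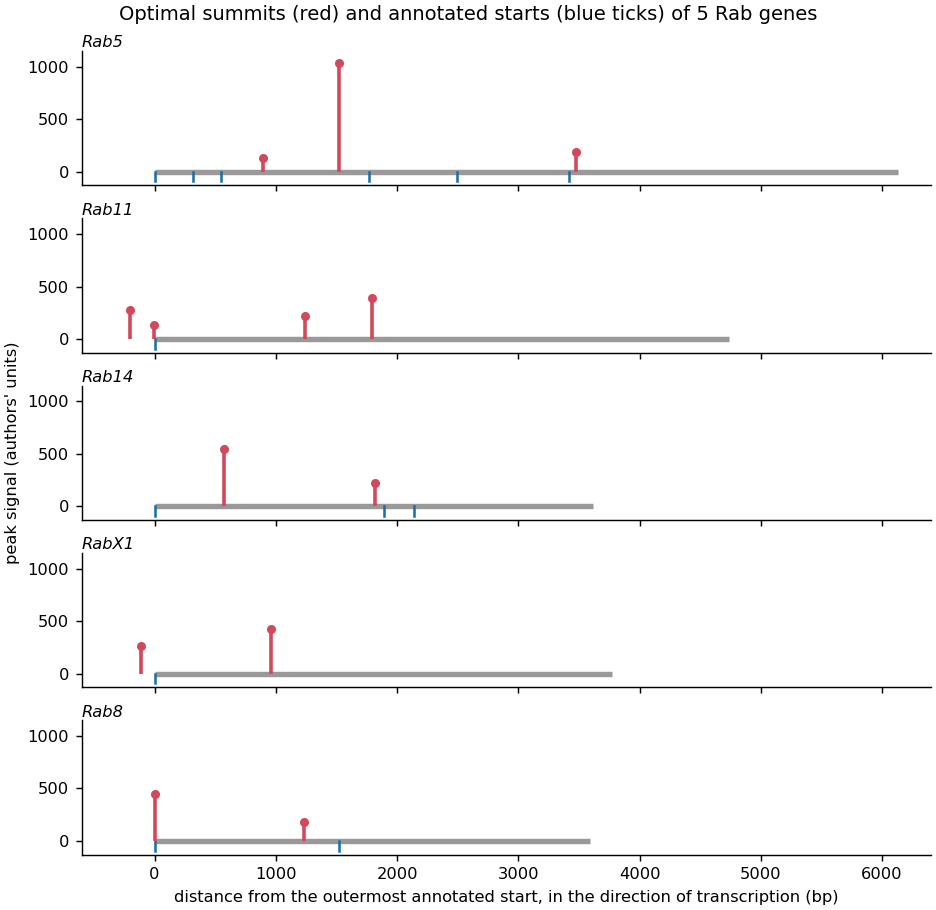
Optimal summits (red, height is peak signal in the authors' units) and annotated starts (blue ticks) of the 5 Rab genes with more than 1 summit, against distance in bp from the outermost start in the direction of transcription; the grey bar is the gene. In Rab5, Rab11, Rab14 and RabX1 the highest summit, at 1037, 390, 549 and 423, lies inside the gene, and in Rab8 the highest, 451, lies at the first start.

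Genes for regulators of Rab proteins often had promoter summits too, in lists drawn from background knowledge and not tested. Over all protein-coding genes the share with a promoter summit was 29.0%. Of the chaperone and prenylation genes 3 of 4 had one (75%): Rep, the escort protein, with a signal of 348, and the transferase subunit genes RabGGTb (237) and RabGGTa (193), but not Gdi. Of the exchange factor genes 7 of 14 had one (50%), led by Mon1 (983) and Ccz1 (504), whose products form the exchange factor of Rab7, and spri (797). Their ranks were 292, 349 and 690 for Mon1, 1579, 1151 and 1840 for Ccz1, and 581, 544 and 562 for spri. Of the TRAPP subunit genes, whose complexes activate Rab1 and Rab11, 6 of 10 had one (60%), led by gry (548), brun (443) and SIDL (327). Of the TBC genes 8 of 13 had one (61.5%), led by TBC1d7 (589), GAPcenA (427) and CG5916 (367). These lists are small. The exact binomial interval began at 19.4% for the chaperone and prenylation genes, 23.0% for the exchange factor genes and 26.2% for the TRAPP genes. These 3 intervals include the 29.0% of all genes. For the TBC genes the interval began at 31.6%, above that share.

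Of the effector genes 12 of 25 had a promoter summit (48.0%). The exact binomial interval began at 27.8% and so included the 29.0% of all protein-coding genes. The strongest was Rbsn-5 (1057, ranks 291, 317 and 340), whose product is a Rab5 effector on early endosomes. It stood close to the 1037 of Rab5 itself. GCC185 (509), a golgin, and Sec15 (359), an exocyst subunit that binds Rab11, followed.

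Other small GTPase families were described in the same way. Arf and Arl genes had a promoter summit in 6 of 12 (50%), led by Arl1 (1544) and Arl5 (605), which act at the Golgi, and Arl8 (208), which acts on lysosomes. The Arl8 summit was uneven, with ranks of 2677, 5523 and 26630. Leaving out replicates 1, 2 and 3 in turn left 2, 3 and 5 of the 12 Arf and Arl genes with a promoter summit. Over all protein-coding genes these rules gave 22.9%, 22.5% and 24.1%. The counts of 2 and 3 both required a match in replicate 3. Ras and Ran family genes had a promoter summit in 6 of 11 (54.5%), led by Ras85D (325), Rheb (260) and Rap1 (217). The exact binomial interval began at 21.1% for the Arf and Arl genes and at 23.4% for the Ras and Ran genes. Each interval included the 29.0% of all genes. In all, 48 of the 89 genes of the 7 lists (53.9%) had a promoter summit, beside 53.3% of the Rab genes and 29.0% of all genes.

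**Figure D5:**
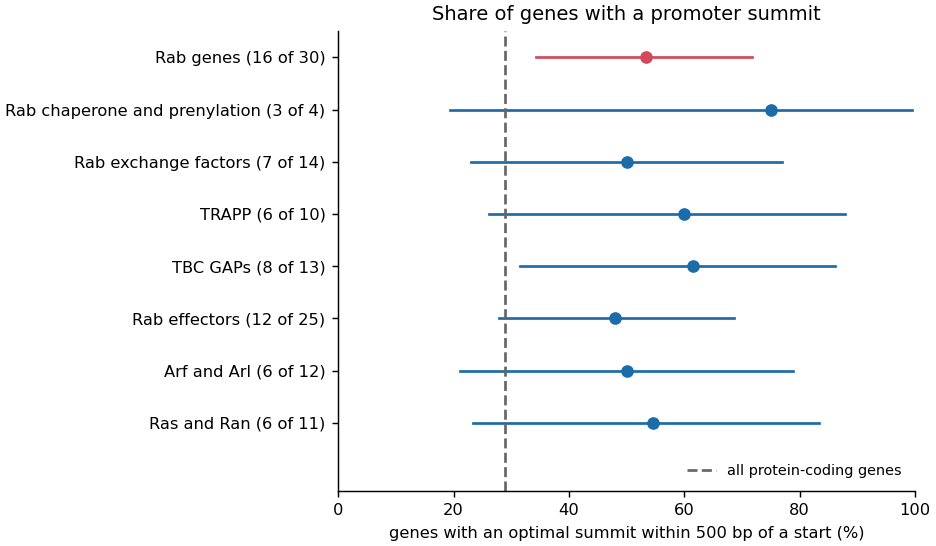
Share of genes (%) with an optimal summit within 500 bp of a start, with exact 95% binomial intervals, for the Rab genes (red), the 7 related lists (blue) and all protein-coding genes (dashed line, 29.0%). The point for Rab genes, 53.3%, lies among those of the related lists, which run from 48.0% to 75%.

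Other rules for a promoter summit changed which Rab genes were counted. Within 250 bp it was 14 (46.7%), without Rab23 and Rab39, against 24.3% of all genes, and within 1000 bp 17 (56.7%), with Rab18, against 32.8%. The outermost start alone gave 14 (46.7%), without Rab5 and Rab14, against 26.4%, and RefSeq starts gave the same 16 genes and 29.0%. In the pooled relaxed list 21 Rab genes had an entry (70%), against 45.8% of all genes. Of the genes with such an entry, 16 of 21 Rab genes reached the optimal list (76.2%), against 63.3% of all. Optimal peaks backed by both other replicates gave 14 Rab genes without replicate 1 (46.7%), 14 without replicate 2 (46.7%) and 13 without replicate 3 (43.3%), against 22.9%, 22.5% and 24.1%. Rab21 was lost without each of the 3, Rab23 without replicate 2 or 3 and Rab35 without replicate 1 or 3. In gene bodies these sets gave 7 Rab genes each (23.3%), against 14.7%, 14.7% and 15.4%, and the stronger peaks 6 (20%), against 11.3%. Under all 10 of the promoter alternatives, 6 Rab genes kept a promoter summit: Rab1, Rab2, Rab7, Rab8, Rab11 and RabX1. The share of all protein-coding genes that kept one under all 10 was not counted, so these 6 have no background beside them.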

How the data were processed

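Chromatin immunoprecipitation with an antibody against GFP was done on 3 biological replicates of the rgr-GFP strain, per the labels. The authors deposited peak lists on dm6. Per the file listing deposited with the samples, each replicate list was called on its own alignment with a control alignment, a pooled list on all 3, and the optimal list was thresholded by the irreproducible discovery rate. The sources used here name no aligner, caller or threshold. How the deposited peak signal was scaled is not stated, so its values and ranks were compared within a list only. The optimal list equals the 8551 strongest entries of the pooled list. The dm3 lists were not used. Each replicate list was assigned to its sample by the deposited file records.

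Summits were placed at column 2 plus column 10 of each list, given 1-based. Gene models were those of Ensembl release 115 on dm6, and the sequence and a second set of starts from RefSeq's copy of the same assembly. All 30 Rab genes had the same span in both annotations. Summits matched between lists within 100 bp. Replicate lists were shortened to 8551 entries for counts. To leave out a replicate, optimal peaks were kept if the remaining replicates both had a match in these shortened lists. This kept 6138 peaks without replicate 1, 5919 without replicate 2 and 6467 without replicate 3. Intervals are exact binomial, at 95%, cover counting error only and treat genes as independent, which neighbours are not.

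The members, the 7 related lists and the words were chosen with earlier results of these data known. The rule for named genes took every Rab gene, its neighbouring start, and up to 3 genes of each list with the highest promoter signal. Gdi, named for the absence of a summit, falls outside it, as do Tbc1d8-9, Rab9Db, Rab9Fa and Rab9Fb. A further list is not reported here. List symbols that matched no gene were Hps1, Hps4, Trs85, Tbc1d5, Tbc1d23, Rabenosyn, R and Diras. The split by neighbours and by number of starts, the core word and the words of 50 bases were chosen after seeing the data. No significance test was run, since there is 1 group without controls among the samples. The functions were tested on simulated data. The work used pandas 2.3.3 and numpy 2.4.6 in Python 3.11.15, with scipy 1.17.1 for intervals and matplotlib 3.10.9 for figures.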

Additional observations from a re-analysis of the deposited data

How the results depend on the processing

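Counts stayed within 1.5 times the reported ones under most alternatives. The stronger 4275 peaks left 9 of the 16 Rab genes with a promoter summit, and top lists of that shorter length gave 9.7 Rab genes on average over the replicates, against 15.7, both by construction since fewer peaks enter. Gene-body summits over 500 bp from the gene's starts were at 3 Rab genes, against 8. Any of the 7 words was within 100 bp of 16 of 20 Rab summits and within 50 bp of 10. The count rose because the window is longer. Over all 3651 promoter summits the shares were 70.1% within 100 bp and 43.4% within 50 bp, so the words were common at other promoter summits too. Leaving out replicates gave 13 to 14 Rab genes at promoters and 7 in gene bodies. Over the 7 lists it gave 37 to 43 of 89 genes, against 48. Of all protein-coding genes, 22.9%, 22.5% and 24.1% had a promoter summit without replicates 1, 2 and 3. The Arf and Arl list fell to 2 and 3 genes without replicates 1 and 2 and to 5 without replicate 3, against 6. The counts of 2 and 3 both required a match in replicate 3, and the cause was not tested. No paired analysis was possible because there is 1 group. Without read counts, what depth limits cannot be stated.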

Other observations

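Some Rab genes lie beside genes of the related lists, an arrangement noticed after the data were seen and not tested. With up to 5 kb between the genes, 5 of the 30 Rab genes (16.7%) lie beside a gene of the 7 lists, against 2.56% of all protein-coding genes. Rab23 and the TBC-family gene plx are head to head with 421 bp between their starts and share the summit of signal 191 described above. Rab11 lies 3436 bp from Sec15, whose product binds Rab11 protein, and the start of rtet lies between them. Sec15 had a promoter summit of 359, 399 bp from its start and nearer to the start of rtet. Rab19 overlaps Arl5 on the other strand, with 2821 bp between their starts, and Arl5 had a promoter summit of 605 while Rab19 had none in the optimal list. Rab9D lies 3667 bp from the exchange factor gene spri. The spri promoter summit of 797, at X:10547206, is near another spri start, far from the Rab9D start at X:10589089. Rab26 lies 2654 bp from Tbc1d8-9, which had no promoter summit.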
